A study of Mus musculus with 12 samples.

Results

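Somatic cells (SCs) of the mouse embryonic ovary were compared with the primordial germ cells (PGCs) of the same gonads for their mitochondrial piRNAs (mito-piRNAs), the small RNAs that match both the mitochondrial DNA (mtDNA) and a piRNA database. The comparison holds every female library, 6 of the 12 libraries of the study, and sets SC11F, SC12F and SC13F against PGC11F, PGC12F and PGC13F, named by cell type, day and sex. All embryos were of the CD1 strain, untreated and of no named genotype, and were collected on embryonic day E11.5, E12.5 or E13.5. PGCs were the cells that magnetic beads carrying an antibody to CD15 retained, at a purity of 93 to 96% per the labels, and SCs were the cells left after this removal, a mixture of gonadal somatic cell types at a purity above 90%. The methods of the study state a minimum purity that is higher than the lowest values of these labels. Each library was made from the pooled RNA of several litters, and no library was repeated. The 3 days therefore stand in for replicates, each SD includes the differences between days, and a p-value measures the spread between days. The cell types could not be checked against marker genes, since the tables list mito-piRNAs only.

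In fetal gonads, piRNAs are known as the small RNAs that PIWI proteins use in germ cells to silence transposons, and most of them come from nuclear clusters. The mtDNA is transcribed as long RNAs from which the tRNAs are cut out, which frees the rRNAs and mRNAs between them. The D-loop is the control region of the mtDNA, which codes for no protein and holds the promoters and an origin of replication. In the fetal ovary, PGCs divide and then enter meiosis, while the somatic cells give rise to the supporting and stromal cells around them.

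The 6 libraries listed 146 of the 204 sequences of the series, 16 to 35 nt long, of which 117 matched the mtDNA exactly and 29 with 1 mismatch. They held between 16061 reads in PGC12F and 55275 reads in SC13F. Levels are given as reads per 1000000 reads of the library total of the study (rpm), which counts only the reads of sequences above a cut-off of 10 CPM and not all small-RNA reads. The lowest level that a library listed was between 14.7 and 17.8 rpm, so that rpm is not the CPM of the cut-off, and the factor between them was not measured and may vary by library. A sequence given as 0 was below about that lowest level. Ratios and shares within a library do not depend on the total. Fewer cells with a given RNA and less of it per cell cannot be told apart in such libraries. PGC11F stood apart from the other PGC libraries in its D-loop level, and PGC13F stood apart from all others in its 3′ ends, so both are described on their own, and the mean differences are also given without the E11.5 pair, which holds PGC11F, and without the E13.5 pair, which holds PGC13F.

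The comparison turned on 4 groups of sequences that each share a 5′ end. Coordinates are those of the GRCm39 mtDNA, and sequences are written as DNA, as deposited. The 1st group started at the first base of tRNA-SerGCT (mt-Ts2, chrM:11613-11671, plus strand), the mitochondrial serine tRNA that lacks a D arm. The 2nd started at the first base of 16S rRNA (mt-Rnr2, chrM:1094-2675, plus strand), the RNA of the large ribosomal subunit. The 3rd started at the first base of tRNA-SerTGA (mt-Ts1, chrM:6870-6938, minus strand), the other mitochondrial serine tRNA. The 4th started at position 16188 on the minus strand, within the D-loop (chrM:15423-16299). Members of each are shown because the libraries differed in their abundance and in where they ended. The capital marks the last base.
tRNA-SerGCT 17 nt: aagaaagattgcaagaA
tRNA-SerGCT 20 nt: aagaaagattgcaagaactG
tRNA-SerGCT 22 nt: aagaaagattgcaagaactgcT
tRNA-SerGCT 23 nt: aagaaagattgcaagaactgctA
tRNA-SerGCT 27 nt: aagaaagattgcaagaactgctaattC
16S rRNA 22 nt: actaatcctagccctagccctA
16S rRNA 23 nt: actaatcctagccctagccctaC
16S rRNA 24 nt: actaatcctagccctagccctacA
16S rRNA 25 nt: actaatcctagccctagccctacaC
tRNA-SerTGA 18 nt: gagaaagacatataggaT
tRNA-SerTGA 19 nt: gagaaagacatataggatA
tRNA-SerTGA 21 nt: gagaaagacatataggatatG
D-loop 16 nt: gaattgatcaggacaT
D-loop 20 nt: gaattgatcaggacataggG
D-loop 26 nt: gaattgatcaggacatagggtttgaT
D-loop 30 nt: gaattgatcaggacatagggtttgatagtT

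The total of all mito-piRNAs differed little between the cell types. PGC11F, PGC12F and PGC13F held 4683, 2709.9 and 7201 rpm, and SC11F, SC12F and SC13F held 5023, 3163 and 8235 rpm. The SC library was the higher one on 3 of 3 days, by 1.07, 1.17 and 1.14 times, but the levels of the groups overlapped, and both were lowest at E12.5 and highest at E13.5. The mean difference on the log2(rpm + 1) scale, SC minus PGC, was 0.17 ± 0.06 (SD, n = 3 days). The two-sided exact permutation test over the signs of the 3 pairs gave p = 0.25, the smallest that 3 pairs allow (adjusted p = 0.56 over 9 comparisons). It was 0.21 without the E11.5 pair and 0.16 without the E13.5 pair. With the mitochondrial small-RNA reads of the study as the denominator the log2 difference was -0.0081. Mito-piRNA reads make up most of that denominator, so this value cannot show whether their level differed.

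tRNA-SerGCT gave the most reads in the ovary, 42.2% of all, and its reads were more abundant in SCs on each day. Its level was 2017, 820 and 2191 rpm in PGC11F, PGC12F and PGC13F and 2385, 1782 and 3733 rpm in SC11F, SC12F and SC13F. SC11F was close to PGC11F, whereas SC12F and SC13F were well above the PGC library of their day, and across days the groups overlapped. The difference, SC minus PGC, was 0.71 ± 0.44 on the log2(rpm + 1) scale (SD, n = 3 days, exact permutation p = 0.25, adjusted p = 0.56). It was 0.94 without the E11.5 pair and 0.68 without the E13.5 pair. It did not pass edgeR's quasi-likelihood test either, with a log2 fold change of 0.71 (SE 0.35) and an adjusted p of 0.42 over the 7 features tested.

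Among its sequences, the 22-nt one was the most abundant of all in the mean of the 6 libraries, and its levels are given with the 3′ ends of PGC13F. The 26-nt sequence stood at 282, 97.9 and 299 rpm in PGC11F, PGC12F and PGC13F and at 419, 316 and 272 rpm in SC11F, SC12F and SC13F. The 25-nt sequence stood at 258, 102.6 and 255 rpm in the PGC libraries and at 274, 249.8 and 424 rpm in the SC libraries, in order of day. For both the groups overlapped, and PGC12F was the lowest library.

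tRNA-SerTGA, with 8.7% of the reads, differed the same way and most at E12.5. Its level was 488, 40.3 and 545 rpm in PGC11F, PGC12F and PGC13F and 525, 203 and 844 rpm in SC11F, SC12F and SC13F. PGC12F was far below every other library, and in it only the 18-nt and 21-nt sequences shown above were listed, at 22.3 and 18.1 rpm. The mean difference of 1.01 ± 1.15 (log2, SD, n = 3 days, exact permutation p = 0.25, adjusted p = 0.56) was 0.37 without the E12.5 pair, 1.47 without the E11.5 pair and 1.20 without the E13.5 pair. edgeR gave a log2 fold change of 1.00 (SE 1.11, adjusted p = 0.50).

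**Figure D1:**
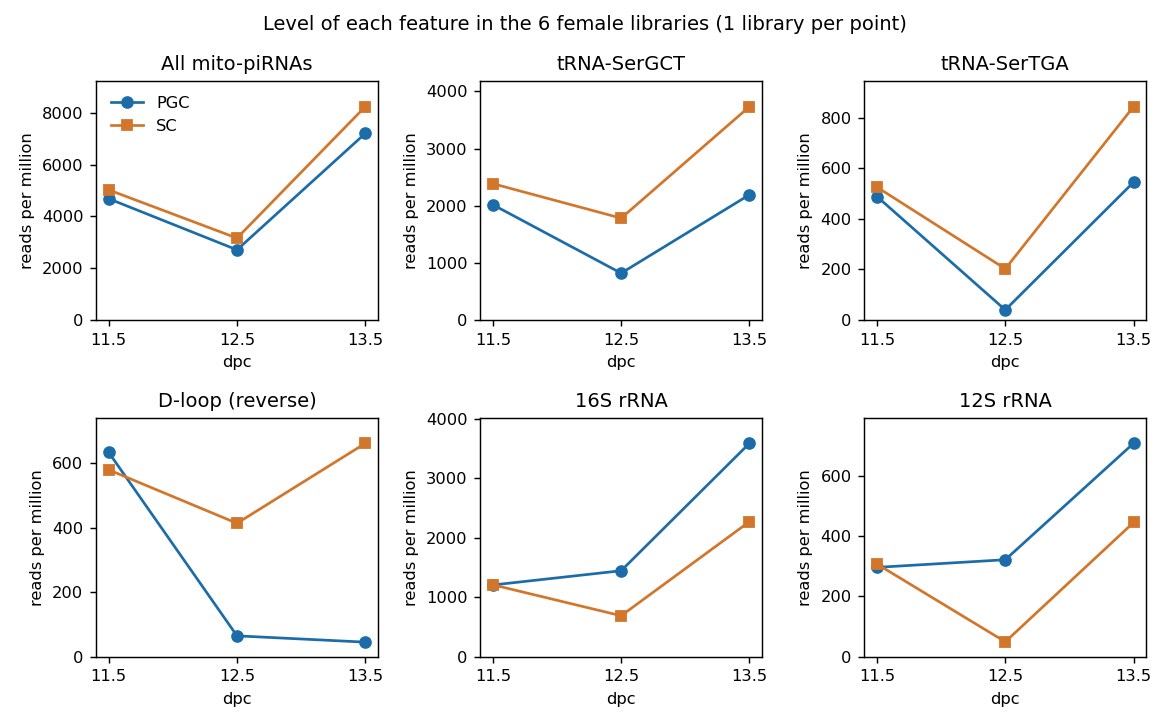
Level in rpm (vertical axes, each from 0) against day (horizontal axes) for all mito-piRNAs and 5 features, with 1 library per point. PGC libraries are circles and SC libraries squares, and lines join libraries of different embryos. The points at E11.5 lie close together in each panel, and the 16S rRNA and 12S rRNA points of PGCs lie above those of SCs at E12.5 and E13.5, while the tRNA and D-loop points lie below.

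The rRNAs lay on the other side. 16S rRNA, with 32.7% of the reads, stood at 1206, 1445 and 3585 rpm in PGC11F, PGC12F and PGC13F and at 1209, 689 and 2269.5 rpm in SC11F, SC12F and SC13F. The libraries of E11.5 were alike, and PGCs were 2.10 times higher at E12.5 and 1.58 times higher at E13.5. The difference, SC minus PGC, was -0.57 ± 0.54 (log2, SD, n = 3 days, exact permutation p = 0.50, adjusted p = 0.56), and edgeR gave a log2 fold change of -0.58 (SE 0.41, adjusted p = 0.43). The difference was -0.33 without the E12.5 pair, -0.86 without the E11.5 pair and -0.53 without the E13.5 pair. Most of these reads started at the first base of the gene, where PGCs held 1003, 1196 and 2648 rpm and SCs 993, 670.1 and 1538 rpm. A second group ended within 30 bases of the last base of the gene, and its level was 124, 232 and 518 rpm in PGC11F, PGC12F and PGC13F and 133, 19.1 and 316 rpm in SC11F, SC12F and SC13F. Of its 9 sequences, PGC12F listed 7 and SC12F listed 1.

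12S rRNA, the RNA of the small ribosomal subunit (mt-Rnr1, chrM:70-1024, plus strand), had 6.7% of the reads and levels of 296, 321 and 707 rpm in PGC11F, PGC12F and PGC13F and of 307, 49.6 and 445 rpm in SC11F, SC12F and SC13F. SC12F was far below the other libraries, and without the E12.5 pair the difference of -1.10 ± 1.41 (log2, SD, n = 3 days, exact permutation p = 0.50, adjusted p = 0.56) moved to -0.31. It was -1.67 without the E11.5 pair and -1.31 without the E13.5 pair. The log2 fold change of edgeR was -1.07 (SE 1.31, adjusted p = 0.50).

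Within 12S rRNA, a pair of sequences starting at position 978 did not overlap between the cell types. Of the 18 5′ ends found in at least 3 female libraries this was the 1 (5.56%) with SCs below PGCs throughout, and 0 (0.0%) had SCs above. Summed, the pair of sequences stood at 97.1, 189 and 140 rpm in PGC11F, PGC12F and PGC13F and at 33.9, 49.6 and 52.7 rpm in SC11F, SC12F and SC13F. They are set apart because both carry the substitution T2A against the mtDNA (positions are counted from the 5′ end, and the base of the mtDNA comes first). Both match a nuclear transcript exactly, Rn18s-rs5, which holds the 18S rRNA of the cytoplasmic ribosome, and match the mtDNA only with this mismatch. The 16-nt member is shown with the base that differs in a capital.
12S rRNA 16 nt T2A: aAaagtcgtaacaagg
Without this pair, 12S rRNA stood at 199, 133 and 567 rpm in PGC11F, PGC12F and PGC13F and at 273, 0 and 392.1 rpm in SC11F, SC12F and SC13F, so that every 12S read of SC12F belonged to the pair. Whether the reads came from 12S or 18S rRNA was not tested.

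The ratio of 16S rRNA to tRNA-SerGCT reads does not depend on the library total. It was 0.60, 1.76 and 1.64 in PGC11F, PGC12F and PGC13F and 0.51, 0.39 and 0.61 in SC11F, SC12F and SC13F. PGC12F and PGC13F were above every SC library, and PGC11F was within their range. The single sequences of a day compare 1 library with 1 other, and lengths of the same 5′ end are not independent. A sequence that a library did not list counts as a share of 0, so for such sequences the listing cut-off helped set the direction. At E12.5, PGC12F listed 20 sequences of 16S rRNA and 5 of 12S rRNA, and SC12F listed 11 and 1. PGC12F listed 2 of the D-loop and SC12F 8. Of the 25 rRNA sequences that either library listed, 25 took a larger share of the reads in PGC12F, whereas 23 of 24 tRNA sequences and 8 of 8 D-loop sequences took a larger share in SC12F. At E11.5 the sequences were mixed, with 15 of 26 rRNA sequences and 8 of 12 D-loop sequences taking a larger share in PGC11F and 16 of 27 tRNA sequences in SC11F, so that the D-loop went against the later days. At E13.5 the rRNA sequences were mixed as well, with 46 of 77 taking a larger share in PGC13F, whereas 37 of 49 tRNA sequences and 10 of 11 D-loop sequences took a larger share in SC13F.

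The D-loop reads were all antisense to the plus strand and all started at position 16188. They made up 8.1% of the reads, in 12 sequences of 16 to 30 nt. SC11F, SC12F and SC13F held 580.0, 414 and 662 rpm. PGC12F and PGC13F held 65.0 and 45.5 rpm, below every SC library, while PGC11F held 634 rpm, above SC11F. As a share of the mito-piRNA reads of the library, the D-loop took 13.54% in PGC11F (95% Wilson interval 13.2 to 13.9), 2.4% in PGC12F (2.2 to 2.6) and 0.63% in PGC13F (0.56 to 0.72), against 11.55%, 13.1% and 8.0% in SC11F, SC12F and SC13F. These intervals cover counting error only.

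The D-loop difference over all 3 days, SC minus PGC, was 2.12 ± 2.03 (log2, SD, n = 3 days, exact permutation p = 0.50, adjusted p = 0.56). The day pairs gave -0.13, 2.65 and 3.83 in order of day, so the sign at E11.5 was opposite to that of the later days, and without the E11.5 pair the mean was 3.24. An exact permutation test over the remaining 2 pairs cannot go below p = 0.50. edgeR gave a log2 fold change of 2.22 (SE 1.34, adjusted p = 0.42). Without the E13.5 pair, which holds PGC13F, the mean difference was 1.26.

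At the later days most D-loop lengths were missing from the PGC libraries. The 20-nt sequence, the most abundant one, stood at 152, 37.3 and 18.8 rpm in PGC11F, PGC12F and PGC13F and at 125, 123 and 144 rpm in SC11F, SC12F and SC13F. The 26-nt sequence stood at 130.4, 27.7 and 0 rpm in the PGC libraries and at 132, 80.6 and 130.5 rpm in the SC libraries, in the same order of days. The 16-nt sequence was listed at 106 rpm in PGC11F and at 99.8, 73.4 and 114 rpm in SC11F, SC12F and SC13F, and in neither PGC12F nor PGC13F. The 19-nt sequence stood at 80.3 rpm in PGC11F and at 54.6, 55.3 and 66.9 rpm in SC11F, SC12F and SC13F. The exact sequences of 21, 22 and 30 nt were listed in PGC11F and in every SC library, at 26.4 to 27.9 rpm in PGC11F and at 16.4 to 42.9 rpm in the SC libraries. Those of 23 and 24 nt were listed in PGC11F, SC11F and SC13F, at 18.2 to 29.9 rpm. The 29-nt sequence was listed in SC11F and SC13F alone, at 16.3 and 21.6 rpm, and the 21-nt sequence with T21C in PGC11F alone, at 20.03 rpm. None of these 8 was listed in PGC12F or PGC13F. PGC12F and PGC13F each listed 2 of the 12 D-loop sequences, PGC11F listed 11 and the SC libraries 10, 8 and 11. One of them, the 21-nt sequence with T21A, went against the rest at E13.5, with 26.7 rpm in PGC13F and 19.8 rpm in SC13F. If each of the 12 that a library did not list had been at its lowest listed level, PGC12F would have held 234 rpm and PGC13F 223 rpm, still below the lowest SC level of 414 rpm.

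**Figure D2:**
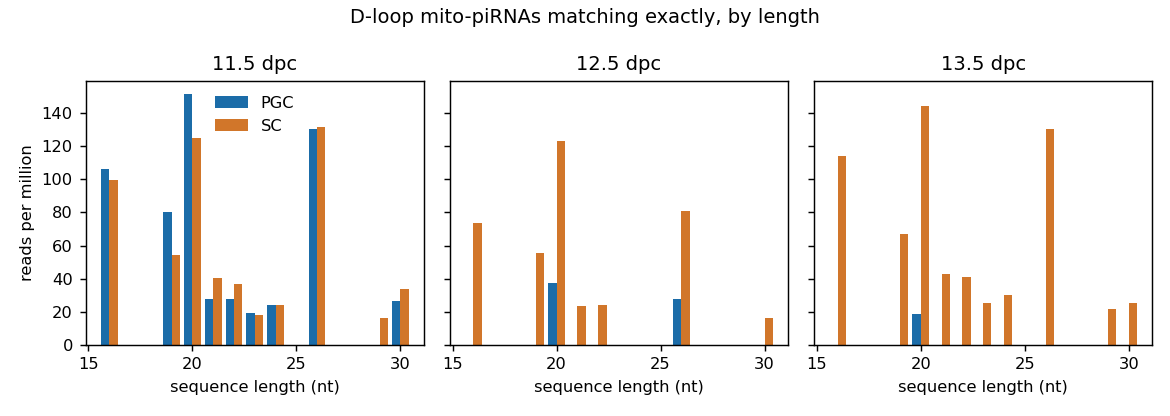
Level in rpm (vertical axis) of the D-loop sequences that match the mtDNA exactly, by length in nt (horizontal axes), in 1 panel per day. Bars stand for single libraries, PGC beside SC. The bars are paired at E11.5 except at 29 nt, where PGC11F has none, and at E12.5 and E13.5 the PGC bars are missing except at 20 nt in both panels and 26 nt at E12.5.

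The libraries can be set side by side through the reads they had in common. For each pair of libraries, the share of reads at each 5′ end was taken and the smaller of the 2 shares was summed, which gives 100% for equal profiles. PGC11F and SC11F had 93.4% in common. PGC11F had 86.4% in common with SC12F and 88.0% with SC13F, but only 64.5% with PGC12F and 69.7% with PGC13F. PGC12F and PGC13F had 84.1% in common, and either had between 57.5 and 70.4% in common with an SC library. By its 5′ ends PGC11F was thus nearer to the 3 SC libraries than to the later PGC libraries. Taken over whole sequences, 3′ ends included, PGC12F and PGC13F had only 38.6% in common, less than PGC12F had with PGC11F (64.0%) or with SC11F, SC12F and SC13F (59.8, 57.5 and 60.3%). PGC13F had 29.2 to 38.6% in common with any other library by this count, and PGC11F 75.2 to 85.9% with the SC libraries. The pairing of PGC12F with PGC13F thus held for 5′ ends and not for whole sequences. Both measures were chosen after the levels were seen and are descriptions of 6 libraries that carry no test.

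**Figure D3:**
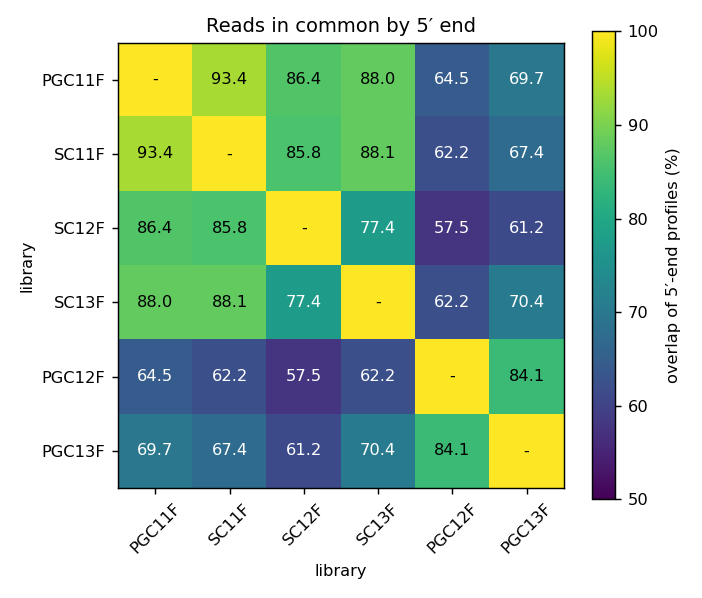
Overlap of 5′-end profiles in percent, for each pair of the 6 female libraries, which are listed on both axes with PGC11F beside the SC libraries. Values among PGC11F, SC11F, SC12F and SC13F lie between 77.4 and 93.4%, the value for PGC12F and PGC13F is 84.1%, and values between these sets lie between 57.5 and 70.4%.

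By 5′ ends the SC and PGC libraries of a day had 93.4, 57.5 and 70.4% in common, in order of day, so they were least alike at E12.5. The lists of sequences had least in common at E13.5, the day of PGC13F, whose 3′ ends stood apart. PGC11F and SC11F shared 51 sequences, which is 92.7% of the PGC list and 83.6% of the SC list. PGC12F and SC12F shared 27, or 65.9% and 62.8%. PGC13F and SC13F shared 33, or 46.5% of the PGC list and 32.4% of the SC list. Only 17 sequences were listed in all 6 libraries, and they held 36.4 to 45.5% of a library's reads. Of the 39 sequences listed by PGCs alone, 36 were in PGC13F alone, and of the 42 listed by SCs alone, 34 were in SC13F alone, the library with the most mito-piRNA reads.

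Tested one by one, no feature and no sequence passed with edgeR, whereas some did with DESeq2. edgeR called 0 of 7 features (0.0%) and 0 of 56 sequences (0.0%) listed in at least 3 female libraries, and 0 of either had an unadjusted p under 0.05. DESeq2 with its own size factors called 3 of the 7 features (42.9%) and 14 of the 56 sequences (25%), where both the tool and the library sizes differ from those of edgeR. DESeq2 with the same library totals as edgeR, a fit added after seeing the data, called 2 features (28.6%), without the D-loop, and 13 sequences (23.2%), so the calls depend on the tool at equal library sizes too. The 3 features called with its own size factors were tRNA-SerGCT (log2 fold change 0.68, SE 0.092, adjusted p = 1.8e-12), the D-loop (2.14, SE 0.90, adjusted p = 0.041) and the antisense of tRNA-Pro. With the library totals, DESeq2 gave tRNA-SerGCT a log2 fold change of 0.71 (SE 0.25, adjusted p = 0.032). tRNA-Pro was fitted as lower in SCs, although its level was 17.7, 17.5 and 19.96 rpm in PGC11F, PGC12F and PGC13F and 0, 0 and 36.6 rpm in SC11F, SC12F and SC13F, the PGC levels being close to the lowest listed one. Of the 14 sequences, 12 were fitted as higher in SCs, among them 5 of the D-loop and 6 of tRNA-SerGCT, of which 3 were listed in SCs alone, and 2 as lower, among them the 12S sequence with T2A. The 3 listed in SCs alone were also among the 13 called with the library totals, and could only come out higher in SCs.

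By direction alone, 2 of the 7 features (28.6%), tRNA-SerGCT and tRNA-SerTGA, were higher in SCs on 3 of 3 days and 0 (0.0%) were lower. Of the 56 sequences, 3 were listed in SC libraries alone, so that they passed the limit of 3 libraries through SCs only and had to be higher there. Of the other 53, 14 (26.4%) were higher in SCs on 3 of 3 days and 5 (9.43%) were lower. Several of the 14 were listed in 3 SC libraries and 1 PGC library, such as tRNA-SerGCT of 32 and 33 nt and the D-loop of 21, 22 and 30 nt. These too reached the limit through SCs, so the filter shaped this count. Summed over 5′ ends, which sets aside where a read ended, 2 of 18 (11.1%) were higher in SCs on 3 of 3 days and 3 (16.7%) were lower, so SCs were not the higher ones more often. The count over sequences includes single lengths that PGC13F, with its different 3′ ends, did not list, such as the 22-nt tRNA-SerGCT sequence.

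In the same 53 sequences, SCs were above PGCs without overlap in 2 (3.77%) and below them in 1 (1.89%), which was the 16-nt 12S sequence with T2A. The 2 higher ones belonged to tRNA-SerGCT and started at its first base. Both were listed in the 3 SC libraries and, among PGCs, in PGC11F only, so they reached the limit of 3 libraries through SCs. The 32-nt sequence stood at 29.3, 0 and 0 rpm in PGC11F, PGC12F and PGC13F and at 61.2, 33.9 and 53.0 rpm in SC11F, SC12F and SC13F. The 33-nt sequence stood at 18.6, 0 and 0 rpm in the PGC libraries and at 33.3, 21.6 and 31.9 rpm in the SC libraries, in the same order.

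The 3 sequences listed in every SC library and in no PGC library also started at the first base of tRNA-SerGCT, and no sequence was listed in every PGC library and no SC library. Each ends in a C that the mtDNA does not have at that place, and they are shown with this base in a capital.
tRNA-SerGCT 22 nt T22C: aagaaagattgcaagaactgcC
tRNA-SerGCT 25 nt T25C: aagaaagattgcaagaactgctaaC
tRNA-SerGCT 26 nt T26C: aagaaagattgcaagaactgctaatC
In SC11F, SC12F and SC13F, the T22C sequence stood at 37.7, 17.5 and 50.4 rpm, the T25C sequence at 25.4, 16.2 and 27.9 rpm and the T26C sequence at 44.2, 30.7 and 20.6 rpm. They came to between 4.9 and 10.5% of the exact sequence of the same length. In the PGC libraries such a share would have been seen only above a limit set by the lowest listed level. For T26C that limit was 5.6% in PGC11F, 17.2% in PGC12F and 5.9% in PGC13F, against 10.5, 9.7 and 7.6% measured in SC11F, SC12F and SC13F. For T22C it was 4.0% in PGC11F and 7.7% in PGC12F, against 8.5, 4.9 and 5.3% in the SC libraries, and PGC13F did not list the exact 22-nt sequence. For T25C it was 6.14% in PGC11F, 16.4% in PGC12F and 6.99% in PGC13F, against 9.27, 6.48 and 6.58% in the SC libraries. The limits of PGC11F were thus below every share measured in SCs. In PGC12F no absence, and in PGC13F only that of T26C, was detectable at this depth against the lowest share in SCs. All 3 sequences end in C, as did only 6.8% of the reads of PGC13F. Over all features, reads with a mismatch at the last base came to 1.2, 0.73 and 2.8% in PGC11F, PGC12F and PGC13F. In SC11F, SC12F and SC13F they came to 4.7, 3.3 and 4.4%. These shares include the 3 sequences above, which were picked because SCs alone listed them. In SC12F, T22C, T25C and T26C held 0.55, 0.51 and 0.97% of the reads. The lowest listed sequence of PGC12F held 0.62%, so T22C and T25C at such shares would have been missed there. The lack of overlap thus rests in part on this choice and on the cut-off. Whether it holds without the 3 sequences was not tested.

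The minor features were listed at no more than 56.8 rpm in a female library. tRNA-Gln, which carries glutamine, stood at 23.7, 0 and 29.8 rpm in PGC11F, PGC12F and PGC13F and at 15.8, 24.8 and 56.8 rpm in SC11F, SC12F and SC13F (edgeR log2 fold change 1.80, SE 4.81, adjusted p = 0.71). ND3, a subunit gene of complex I, was listed at E13.5 only, at 49.4 rpm in PGC13F and 36.6 rpm in SC13F, and its 3 sequences carried T3C and matched a nuclear place exactly. tRNA-Glu was also listed at E13.5 only, at 28.3 rpm in PGC13F and 38.6 rpm in SC13F. SC13F alone listed tRNA-Val, tRNA-Phe, tRNA-Asn and tRNA-Gly in forward and tRNA-Ala in reverse orientation, at 17.4 to 39.0 rpm.

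The 3′ ends of PGC13F differed from those of the other libraries. Reads ending in C made up 6.8% in PGC13F (95% Wilson interval 6.6 to 7.1) and 25.6 to 35.1% in the other 5 female libraries. Reads ending in A made up 38.1% in PGC13F and 3.1 to 6.0% in the others. Among exact matches, the next base of the mtDNA after the end was a C for 52.7% of the reads of PGC13F, against 11.2 to 16.4% in the other 5, and an A for 28.5%, against 52.1 to 64.3%. In those 5 libraries every exact read that ended in A was followed by a further A in the mtDNA (100%), whereas in PGC13F this was so for 19.1%. Whether PGC13F was trimmed like the other libraries was not tested, and this touches its end bases and the sequences that it alone lists or lacks. The 6 male libraries lay with the 5, with at most 7.9% of reads ending in A.

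**Figure D4:**
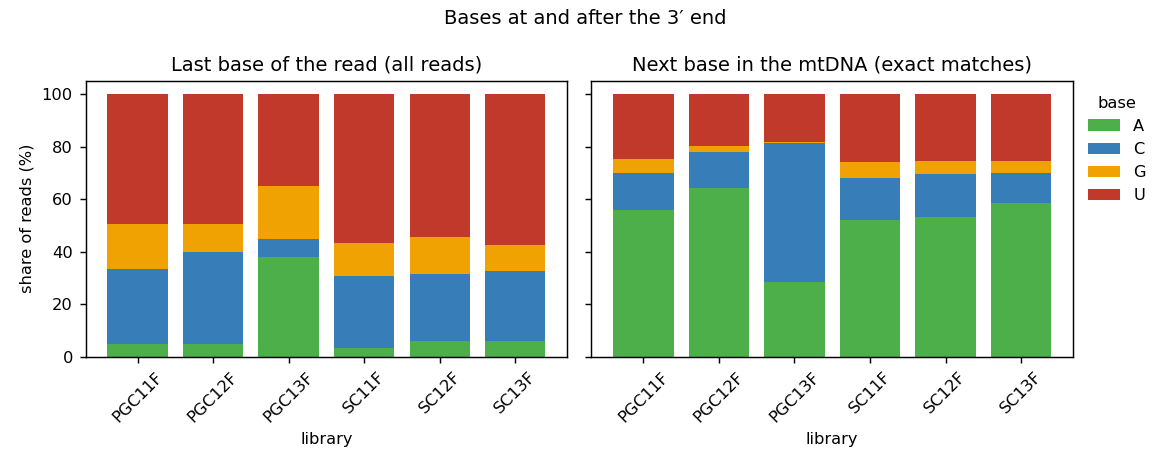
Share of reads in percent (vertical axis) by the last base of the read, left, and by the base that follows in the mtDNA for exact matches, right, in each of the 6 female libraries. PGC13F has 38.1% of reads ending in A and 52.7% followed by C, and the other 5 libraries resemble each other.

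The same shift was seen within sequences that share a 5′ end. For tRNA-SerGCT, the 22-nt sequence stood at 395 and 221 rpm in PGC11F and PGC12F and at 443, 358 and 952 rpm in SC11F, SC12F and SC13F, and was not listed in PGC13F. In its place PGC13F listed the 17-nt sequence with 24.1% of the exact reads from this 5′ end, which no other female library listed, and the 20-nt sequence with 15.5%. For 16S rRNA, PGC13F alone listed a 17-nt sequence, at 329 rpm. The 23-nt and 25-nt sequences, which end in C, were listed in the other 5 libraries and not in PGC13F, whereas the 22-nt and 24-nt sequences, which end in A, were listed in PGC13F only, with 11.2 and 18.9% of the exact reads of the group. In tRNA-SerTGA, the 19-nt sequence took 32.8% of the exact reads of PGC13F and was listed in no other female library. PGC13F listed 36 sequences that no other female library listed, 26 of them ending in A, and these held 41.4% of its reads. It lacked 10 sequences that all 5 others listed.

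**Figure D5:**
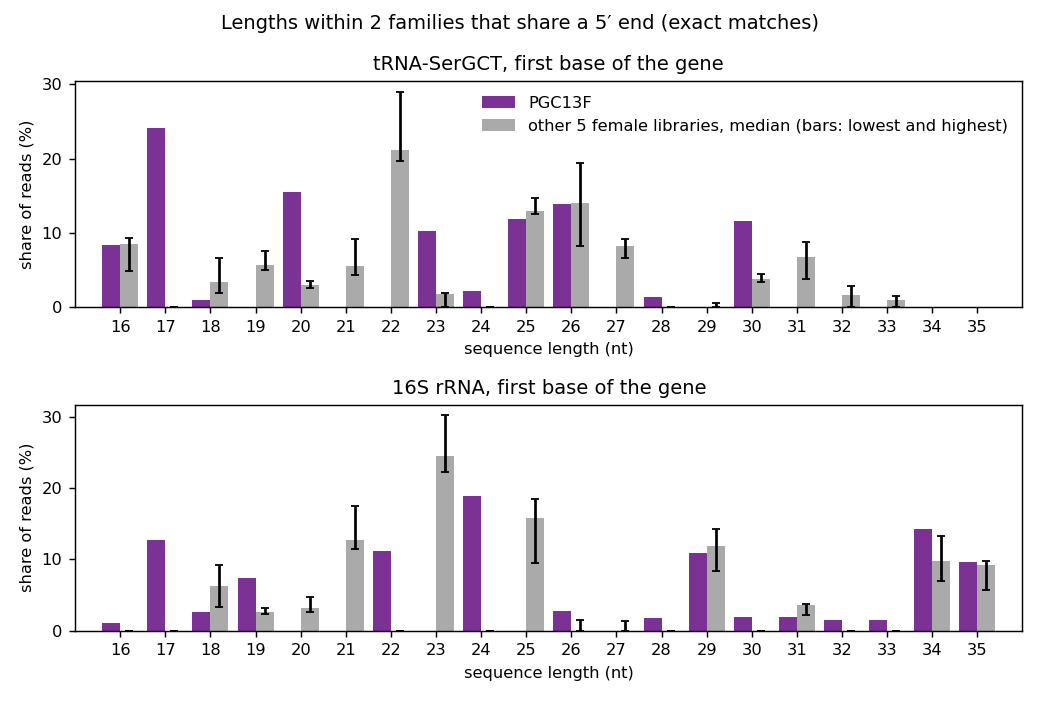
Share of exact reads in percent (vertical axes) at each length in nt (horizontal axes) for sequences that start at the first base of tRNA-SerGCT, top, and of 16S rRNA, bottom. Bars beside each other are PGC13F and the median of the other 5 female libraries, whose error bars run from the lowest to the highest library. PGC13F has no reads at 22 nt in the top panel and at 23 and 25 nt in the bottom panel, where the others peak.

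Results on single lengths at E13.5 therefore compare different 3′ ends, and how far sums over a 5′ end are exposed to them was not tested. The bases that follow the reads also differ between features. Of the 20 possible lengths from 16 to 35 nt, the D-loop sequence has 0 that are followed by a C, against 6 for tRNA-SerGCT, 5 for 16S rRNA and 2 for tRNA-SerTGA. The part of the 3′ ends in the low D-loop level of PGC13F was not tested. PGC12F, in which 4.8% of the reads ended in A and 35.1% in C, had a D-loop level of 65.0 rpm.

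With PGC13F among the PGCs, the share of reads ending in C gave no steady difference. It was 28.5, 35.1 and 6.8% in PGC11F, PGC12F and PGC13F and 27.6, 25.6 and 26.4% in SC11F, SC12F and SC13F. The mean difference, SC minus PGC, was 3.1 ± 14.9 percentage points (SD, n = 3 days, exact permutation p = 1.0), and without the E13.5 pair it turned to -5.2. Mean read length was 23.04, 24.01 and 23.36 nt in PGC11F, PGC12F and PGC13F and 23.26, 23.50 and 23.06 nt in SC11F, SC12F and SC13F. This difference of -0.20 ± 0.38 nt (SD, n = 3 days, exact permutation p = 0.50, adjusted p = 0.56) was within the spread between days, and it was -0.41 nt without the E11.5 pair, -0.15 nt without the E13.5 pair and -0.040 nt without the E12.5 pair.

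Reads without a nuclear match, at up to 1 mismatch, are those that the mtDNA alone can account for. They made up 20.8, 31.5 and 34.1% in PGC11F, PGC12F and PGC13F and 20.4, 16.5 and 20.9% in SC11F, SC12F and SC13F. The PGC library was the higher one on 3 of 3 days, but by only 0.43 percentage points at E11.5 and by 15.0 and 13.2 at E12.5 and E13.5. The difference, SC minus PGC, was -9.5 ± 7.9 percentage points (SD, n = 3 days, exact permutation p = 0.25, adjusted p = 0.56). It was -14.1 without the E11.5 pair and -7.70 without the E13.5 pair. In PGC13F the share includes the 24-nt 16S sequence, which has no nuclear match, holds 6.76% of its reads and was listed in no other female library, while the 23-nt sequence, which has one, was not listed there. Other 3′ ends of PGC13F went the opposite way. Among female libraries it alone listed the 17-nt tRNA-SerGCT (7.2% of its reads), 17-nt and 22-nt 16S (4.56 and 4.02%) and 19-nt tRNA-SerTGA (2.48%) sequences, all with a nuclear match. It also lacked the 25-nt 16S sequence, which has none. The net part of the 3′ ends in this share was not tested. With nuclear matches counted only where exact, the difference was -5.04 (exact permutation p = 0.50), and with each listed sequence counted once it was -4.51 (exact permutation p = 0.25). The 16S sequences of 25, 29, 34 and 35 nt from the first base of the gene and 6 of the 9 near its 3′ end were among the sequences without a nuclear match, and most tRNA-SerGCT sequences had one.

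Whether the ovary differed from the testis was tested as an interaction in edgeR on all 12 libraries. It called 0 of 11 features (0.0%) and 0 of 97 sequences (0.0%), with 0 features and 2 sequences at an unadjusted p under 0.05, and DESeq2 called 0 of either, with 1 feature and 3 sequences at an unadjusted p under 0.05. The D-loop stood at 214, 213 and 140 rpm in the male PGC libraries and at 289, 610.0 and 596 rpm in the male SC libraries, in order of day. SCs were thus the higher ones on 3 of 3 days in the testis and on 2 of 3 in the ovary. The ovary minus testis difference in the D-loop log2 fold change was 0.86 (SE 1.24, adjusted p = 0.94 by edgeR). For tRNA-SerGCT, which was higher in female SCs on 3 of 3 days, male SCs were higher on 1 of 3, and the difference was 0.34 (SE 0.75, adjusted p = 0.99 by edgeR).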

How the data were processed

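Small RNAs of the 6 female libraries were sequenced on an Illumina MiSeq in the study. Per the methods, the authors trimmed adapters with Trim Galore with a minimum overlap of 1 base, collapsed identical reads, discarded sequences under 10 CPM and aligned with Bowtie to mm39 and the mtDNA. They kept sequences that matched the mtDNA and a piRNA database with up to 1 mismatch. A last base that equals the first base of the adapter can be lost in such trimming, and sequences under the cut-off are missing, here taken as 0. The deposited values are raw read counts per sequence.

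Counts were divided by the library totals of the study (rpm), which hold only sequences above that cut-off. Each sequence was placed on the GRCm39 mtDNA and the nuclear chromosomes with up to 1 mismatch and assigned to GENCODE vM39 genes. Exact matches to nuclear transcripts were searched as well. edgeR 4.0.16 (R 4.3.3) fitted day and cell type with Benjamini-Hochberg adjustment at 0.05 over features or sequences listed in at least 3 libraries, and DESeq2 1.42.0 was an alternative. The fit was tested on simulated counts with 4-fold changes and a dispersion of 0.1, where it called 98.8% of the changed sequences. The simulation had no listing cut-off, so it does not measure the power of the test on these data. The 9 single values (6 levels, mean length and 2 shares of reads) were compared by an exact sign-flip permutation test over the 3 day pairs, on log2(rpm + 1) for levels. Intervals are 95% Wilson intervals.

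Text names every feature listed in a female library, the most abundant sequences, the D-loop sequences, those listed in all libraries of one cell type and none of the other, and those of PGC13F with their counterparts. The members and lists were chosen with earlier results of these data known, and the 5′-end profiles, next bases and transcript matches after values were seen. The sequences under 10 CPM were not analysed here. The mapping used numba 0.67.0 and numpy 2.4.6 under Python 3.11.15, and values were computed with scipy 1.17.1 and pandas 2.3.3.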

Additional observations from a re-analysis of the deposited data

How the results depend on the processing

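With DESeq2 and its own size factors in place of edgeR and the library totals, 3 features (2 higher and 1 lower in SCs) and 14 sequences (12 higher and 2 lower) were called in place of 0. With DESeq2 and the library totals, added after seeing the data, 2 features (1 higher and 1 lower) and 13 sequences (13 higher and 0 lower) were called, so the change of tool alone moved the counts. Both counts of sequences include the 3 listed in SCs alone, which could only come out higher in SCs. Every other fit of features or sequences called 0, library sizes, filters, floors and left-out libraries included, and so did counts summed per 5′ end, a fit added after seeing the data (0 of 18, with 1 at an unadjusted p under 0.05). With mitochondrial small-RNA reads as the denominator the difference in total reads turned to -0.0081, and with each listed sequence counted once the difference in mean length turned to 0.034 nt. Leaving out a day pair gave -5.2 to 9.4 percentage points for reads ending in C, the former without E13.5. Of the values that an alternative could move, the other 113 kept their sign or count, and several of them changed in size by more than 1.5 times. With unlisted sequences at the lowest listed count, the log2 difference was 0.060 in the total, 0.84 in the D-loop, 0.56 in tRNA-SerTGA and -0.49 in 12S rRNA. With exact matches only it was -2.43 in 12S rRNA, the mean length differed by -0.47 nt and reads ending in C by 1.24 percentage points. tRNA-SerTGA differed by 2.80 with a floor of 25 rpm, and reads ending in C by 6.74 points with each sequence counted once. Without the day pairs, the smallest p over the 20 splits is 0.10, and the lowest reached was 0.20. Depth limits any statement on sequences under about 18 rpm.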
